A study of Sorghum bicolor with 177 samples.

Results

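The genes described here are the enzymes and dirigent proteins of phenylpropanoid and flavonoid metabolism in Sorghum bicolor, followed through 21 d of iron and zinc stress in roots and leaves. They were taken as the unique genes whose rice definition line in the deposited annotation names phenylalanine ammonia-lyase, chalcone, flavon-, cinnam-, caffeoyl-, coumar- or dirigent, with cytochromes P450 left out. The rule used no measured value and gave 159 of the 34129 genes in the table. They comprised 8 phenylalanine ammonia-lyases (PAL), 2 4-coumarate-CoA ligase-like genes (4CL), 10 cinnamoyl-CoA reductases (CCR), 7 caffeoyl-CoA O-methyltransferases (CCoAOMT), 26 chalcone synthases (CHS), 10 genes described as stilbene or chalcone synthases, 2 chalcone isomerases (CHI), 22 flavonol synthase or flavanone hydroxylase relatives, 19 dihydroflavonol reductase (DFR) relatives, 8 isoflavone reductase (IFR) relatives, 4 flavonol glucosyltransferases, 2 flavonol sulfotransferases, 38 dirigent proteins and 1 kinase with a dirigent description.

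PAL releases ammonia from phenylalanine and so opens the pathway, and 4CL activates the resulting acids as CoA esters. CCR and CCoAOMT lead from there to the monolignols that are coupled into lignin, while dirigent proteins guide the coupling of monolignol radicals and, in Arabidopsis, take part in laying down the lignin of the root Casparian strip. CHS and CHI form the flavonoid skeleton on the other branch, and sorghum leaves use it to make 3-deoxyanthocyanidin pigments when infected. The definition lines name families, not proven activities, so several members are relatives with other known roles, among them DMR6-like and SRG1-like oxygenases, farnesol dehydrogenase-like reductases and a Tic62-like protein of the chloroplast envelope.

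Seedlings of the reference line BTx623 were grown in hydroponics and moved after acclimation to modified Hoagland's solutions that differed in iron or zinc. FeLim plants received no iron, FeEX plants received 1 mM NaFeEDTA, ZnLim plants received no zinc, ZnEx plants received 100 µM ZnSO4, and Control plants received 1 µM ZnSO4 with 50 µM NaFeEDTA; every other salt was shared, and iron treatments kept the zinc of the control and the reverse. Roots were taken at 1 h and at 2, 4, 7, 14 and 21 d, leaf discs of the young leaf at 2, 4, 7, 14 and 21 d, and both also at 0 h. The labels list 177 libraries, and the table gives 1 authors' mean TPM (a level relative to transcript length and library total) for each of 31 root and 26 leaf combinations of treatment and time, most of them means of 3 libraries.

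Because the values are means, the spread between plants is not in the table and the sampling time served as the replicate. Each treatment was compared with Control at the same times on log2(TPM + 1) with limma over all genes that averaged at least 1 TPM in the tissue, and a member was called at an adjusted p under 0.05. Differences below are log2 differences, treatment minus Control, ± SE. All 4 treatments share the same Control columns, so a high or low Control at 1 time enters all 4 comparisons. In such bulk tissue, fewer cells of a type and less RNA per cell cannot be told apart. Of the members, 84 passed the level filter in root, 58 in leaf and 49 in both, while 66 passed in neither; 8 were listed at 0 in every column, 43 never reached 1 TPM, and 34 reached 100 TPM somewhere.

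2 features of the series touch the results. In the root FeEX column at 7 d, the 10 highest genes held 35.5% of the TPM, against 4.27 to 7.74% in the other root columns, and 1 of 8 genes that stood at 5000 TPM or more and at least 10-fold above all other root columns was a chalcone isomerase described below. The root Control columns at 2 d and 4 d both lay below the 5 other root Control columns for 32 of the 84 members tested (38.1%), against 33.4% of all genes, and for 15 of the 23 dirigent genes tested (65.2%). Summed leaf markers (22 genes) stood at 68270 to 251018 TPM in leaves and 36.5 to 162 TPM in roots, and 8 root markers summed to 80.3 to 251 TPM in roots and 19.3 to 155 TPM in leaves.

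The members were far more abundant in roots than in leaves, and in roots the PAL2-like Sobic.004G220300 alone, with a mean of 5860.4 TPM, made up most of their sum. The members together held 6011 to 13971 TPM in the root columns other than FeEX at 7 d (median 9244) and 1061 to 2574 TPM in leaves (median 1646). PAL alone accounted for a median of 71.4% of the members' TPM in roots and 22.2% in leaves. The dirigent proteins had a mean sum of 972 TPM in roots and 218 TPM in leaves, and CCoAOMT of 746 TPM in roots and 64.7 TPM in leaves. The mean CHI sum, 1861 TPM in roots and 27.9 TPM in leaves, rests on the FeEX column at 7 d, and the median over root columns was 169 TPM. The IFR relatives (218 TPM in roots, 396 TPM in leaves), the DFR relatives (118 and 186 TPM in the same order) and the 4CL-like genes (7.97 and 58.8 TPM) had larger sums in leaves.

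**Figure D1:**
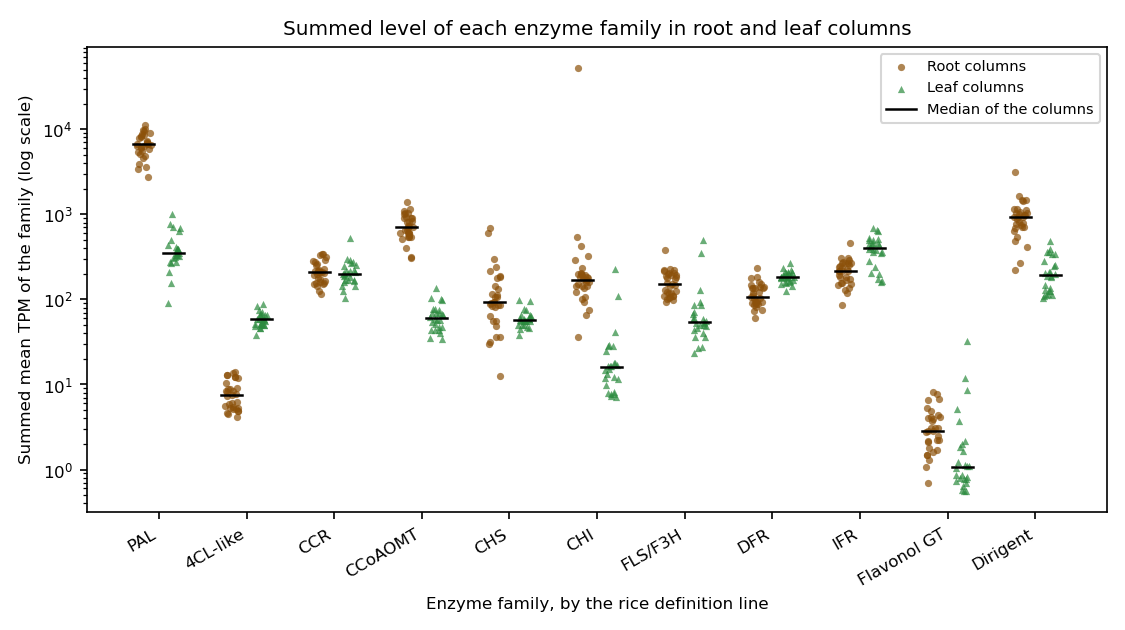
Each point is the summed mean TPM (log axis) of an enzyme family in 1 column of the table, with root columns left of leaf columns and a bar at the median of the columns; the stilbene or chalcone synthases, flavonol sulfotransferases and the kinase are left out. PAL, CCoAOMT and dirigent sums are higher in roots, 4CL-like and IFR sums are higher in leaves, and a single root column, FeEX at 7 d, lies far above the rest for CHI.

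Root and leaf levels were compared over the 6 Control columns that the tissues share in time. Of 93 members tested, 59 were higher in root and 17 were lower, while 65% of all 22041 genes tested were higher in root and 17.6% were lower, so the members' share of root-high genes was close to that of all genes. The median difference, root minus leaf, was 1.60 for the members and 1.07 for all genes. When each pair of columns was rescaled to a median difference near 0, 40 members were higher in root and 28 were lower, with a median of 0.57, against 7337 and 7284 of all genes and a median of 0.04.

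The dirigent family lay most to the root side, with 22 of 26 tested members higher in root and 3 lower (median difference 3.10). The root-high PAL set was led by the PAL2-like gene Sobic.004G220300, which averaged 5985 TPM in Control roots and 67.5 TPM in Control leaves (6.58 ± 0.34). A PAL1-like gene, Sobic.006G148800, averaged 389 TPM in Control roots and 3.75 TPM in Control leaves (6.38 ± 0.31). CCoAOMT1-like genes, which methylate caffeoyl-CoA on the way to guaiacyl lignin, were also root-high: Sobic.007G218800 averaged 282 TPM in Control roots and 10.5 TPM in Control leaves, and Sobic.010G052200 284 and 29.8 TPM in the same order. The CCR Sobic.009G243400, the highest of its family in roots, averaged 112.8 TPM in Control roots and 7.55 TPM in Control leaves (3.53 ± 0.43), while the highest IFR relative in roots, Sobic.003G104600, averaged 100.5 TPM in Control roots and 52.7 TPM in Control leaves and did not pass the test (1.32 ± 0.61, adjusted p = 0.069). Among the dirigent proteins, Sobic.005G061200 averaged 208 TPM in Control roots and 11.9 TPM in Control leaves, and Sobic.005G101600 averaged 81.1 TPM in Control roots and was listed at 0 in every Control leaf column.

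A smaller set was leaf-high, and it included at least 1 gene of most steps. The PAL1-like Sobic.004G220700 averaged 20.9 TPM in Control roots and 153 TPM in Control leaves (-3.42 ± 0.70), so the leading PAL gene differed between the tissues. The chalcone synthase Sobic.007G170400 averaged 0.00869 TPM in Control roots and 47.1 TPM in Control leaves (-5.57 ± 0.16), and the dirigent Sobic.005G192600 averaged 0.453 TPM in Control roots and 124 TPM in Control leaves (-6.25 ± 0.25). Also leaf-high were, among others, the dirigent Sobic.005G200600 (-4.69 ± 0.47), the DFR relatives Sobic.003G342200 (-5.88 ± 0.19) and Sobic.003G342100 (-4.04 ± 0.27), the 4CL-like Sobic.001G500800 (-3.83 ± 0.29) and the CCR1-like Sobic.007G141200 (-1.37 ± 0.51). The most negative difference among members belonged to the Tic62-like Sobic.002G000500 (-7.31 ± 0.24), whose description is that of a chloroplast protein rather than of a flavonoid enzyme.

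In roots under zinc excess, the called members were a dirigent gene over all times, another dirigent gene at early times, and a chalcone synthase and a DFR relative at late times, and levels at 21 d were high in several chalcone synthases and in a group of consecutively numbered dirigent genes. By limma over all 6 times, 1 of 84 members was higher and 0 were lower (21 at an unadjusted p under 0.05), while of all genes 1.39% were called, 1.21% higher and 0.176% lower. An unadjusted p under 0.05 was found for 2859 of the 20481 genes. The member median was 0.24 and the all-gene median 0.02. In a second fit, with an early effect up to 4 d and a late effect at 7, 14 and 21 d, the late effect was higher for 2 members and lower for 0, while of all genes 0.752% were called, 0.728% higher and 0.0244% lower.

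The called gene was the dirigent Sobic.005G101500. It stood at 0.0270, 6.41, 5.05, 2.45, 8.27 and 82.7 TPM in ZnEx roots at 1 h, 2, 4, 7, 14 and 21 d, against 0.0780, 0.454, 0.546, 0.859, 0.247 and 0.362 TPM in Control roots (2.33 ± 0.54, adjusted p = 0.0266). ZnEx was above every Control value from 2 d onward and was highest at 21 d. The gene averaged 0.424 TPM in Control roots, below the level filter, and 2.45 TPM in ZnLim roots. That filter took in the ZnEx columns, and whether the gene would pass it without them was not tested. The call was lost in 9 of 13 alternative fits, over which the adjusted p ran between 0.0103 and 0.289. Leaving out 2, 4, 7 or 14 d gave 0 called members, leaving out 21 d gave 1 member higher, which was not this gene, and leaving out 1 h gave 4 higher and 1 lower.

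Its numbered neighbours, named here after their values were seen, were high at 21 d. Sobic.005G101600 had 42.4, 24.96, 70.9, 301, 102 and 1433 TPM in ZnEx roots over the 6 times and 48.6, 29.7, 92.1, 92.4, 27.4 and 188 TPM in Control roots. Sobic.005G101700 had 12.1, 1.64, 26.7, 143, 37.2 and 1034 TPM in ZnEx roots and 19.3, 11.2, 62.3, 70.5, 6.90 and 108 TPM in Control roots. Both were below Control up to 4 d and above it from 7 d, most of all at 21 d. Sobic.005G101800 had 83.7 TPM in ZnEx roots at 21 d against 10.6 TPM in Control. At 21 d the other 3 treatments were also above Control for all 4 of these genes, but below ZnEx. None of the 3 neighbours passed the test (for Sobic.005G101600, 0.95 ± 0.50, adjusted p = 0.40). The dirigent sum of the ZnEx column at 21 d, 3123 TPM, was the highest of all root columns, although 16 of the 23 tested dirigent genes had negative late differences and the family's late median was -0.35. Of all genes, 38.4% had a positive late difference, and their late median was -0.08.

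Most chalcone synthases tested had positive late differences. In the late window 9 of the 10 tested in root had a positive difference in ZnEx (median 1.74), 7 at an unadjusted p under 0.05 and 1 called. Of all 20481 genes, 38.4% had a positive late difference and 2024 an unadjusted p under 0.05. Most of the 10 chalcone synthases belong to the numbered run described below, whose reads may be shared, so they may not be independent. The called gene, Sobic.002G310600, stood at 5.44, 12.3, 12.6, 17.5, 20.8 and 27.8 TPM in ZnEx roots and 6.25, 9.47, 9.77, 6.84, 4.49 and 4.44 TPM in Control roots (late difference 1.88 ± 0.34, adjusted p = 0.0121; over all times 1.03 ± 0.29, adjusted p = 0.0776). The ZnEx values lay above every Control value from 2 d onward. The other late call was the DFR relative Sobic.001G285400, with 9.23, 10.7, 17.2, 13.4, 26.7 and 54.6 TPM in ZnEx roots and 10.2, 9.74, 9.76, 8.99, 14.1 and 12.6 TPM in Control roots (late difference 1.15 ± 0.24, adjusted p = 0.0309).

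6 chalcone synthases numbered Sobic.005G136300 to Sobic.005G137300, all closest to the Arabidopsis chalcone synthase TT4 and described as similar to maize WHP1, were read together because near-identical copies may share reads. Sobic.005G137200, the highest of them at 21 d, had 0.267, 0.754, 5.03, 28.6, 18.5 and 136 TPM in ZnEx roots, 1.05, 1.29, 1.58, 2.40, 10.6 and 122 TPM in ZnLim roots and 1.81, 0.583, 3.58, 12.2, 1.04 and 37.4 TPM in Control roots over the 6 times. Its level was higher at 21 d than at any earlier time in each of these 3 solutions, and highest in the 2 zinc treatments. At 21 d the 6 genes stood at 38.5 to 136 TPM in ZnEx roots and 55.7 to 122 TPM in ZnLim roots, against 23.7 to 38.2 TPM in Control. These ranges run over genes within 1 column each, and the 6 genes are not replicates of a treatment. The FeLim roots had 15.5 to 29.5 TPM and the FeEX roots 5.53 to 27.3 TPM at the same time, and each of the 6 genes was below Control in both. The summed chalcone synthases at 21 d reached 696 TPM in ZnEx, 598 TPM in ZnLim, 189 TPM in FeEX and 215 TPM in FeLim roots, against 295.5 TPM in Control. Of the 2 other genes numbered among them, neither exceeded 2.21 TPM in any column. A tested gene numbered just before them, Sobic.005G136200, did not follow them: it stood at 42.1, 13.2, 11.6, 30.5, 39.9 and 91.8 TPM in ZnEx roots and 55.1, 11.8, 8.09, 61.5, 74.1 and 96.9 TPM in Control roots (-0.28 ± 0.44). None of the 6 passed the test in ZnEx (for Sobic.005G137200, 0.94 ± 0.51, adjusted p = 0.42).

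**Figure D2:**
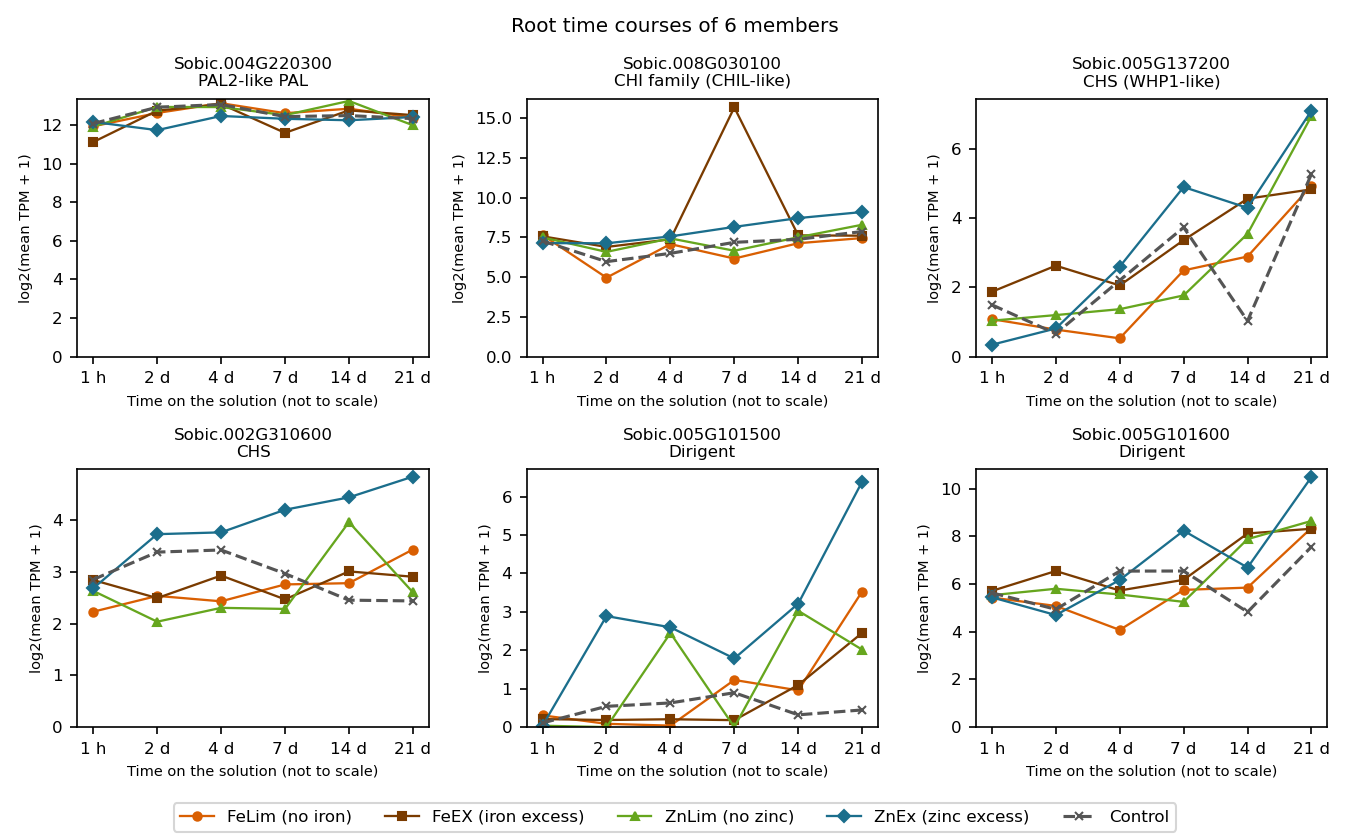
Root levels, log2(mean TPM + 1), of 6 members against time for FeLim, FeEX, ZnLim, ZnEx and Control (dashed). The PAL2-like gene stays at a high level in all solutions, the CHI gene has 1 extreme point in FeEX at 7 d, and the CHS and dirigent panels end at 21 d with ZnEx above Control.

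**Figure D3:**
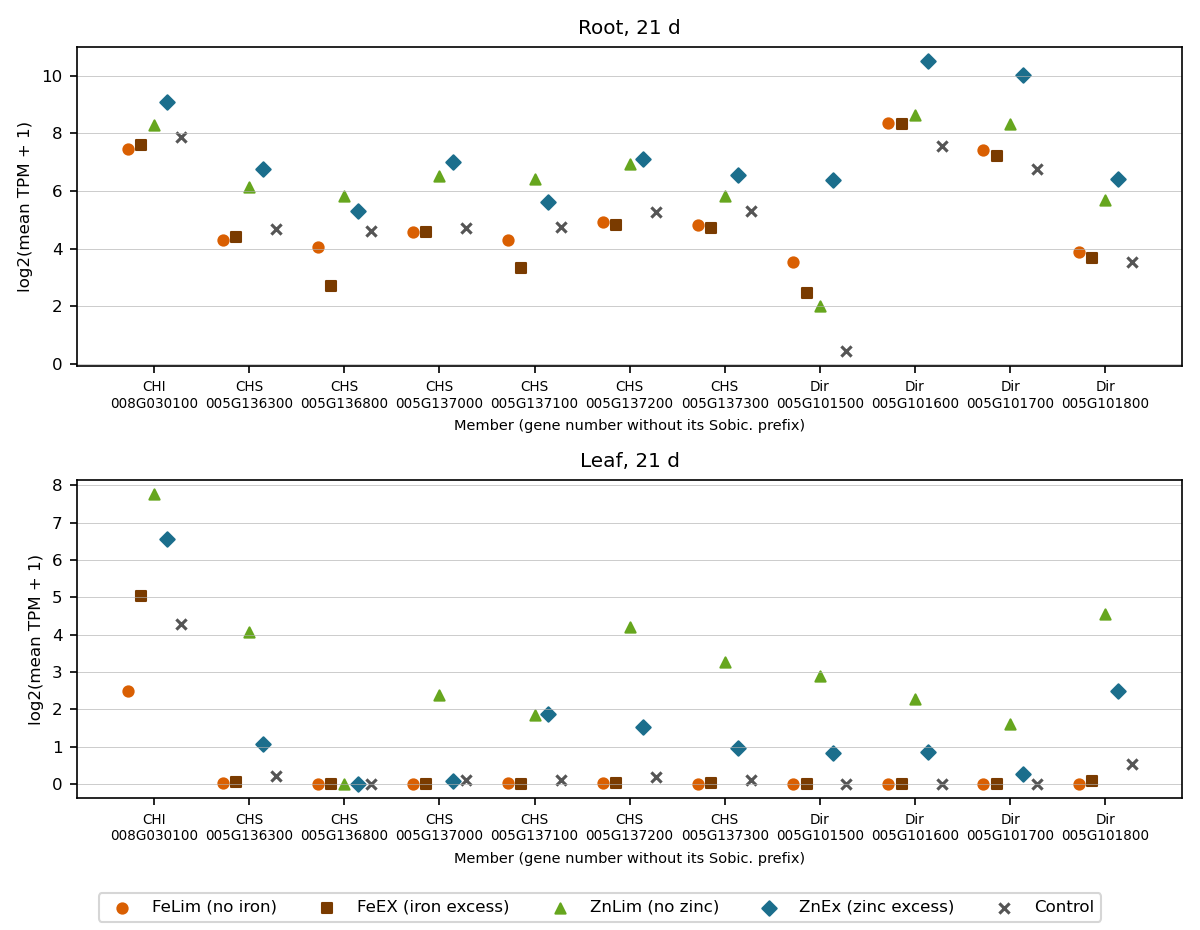
Levels at 21 d, log2(mean TPM + 1), of the CHI gene, the 6 numbered CHS genes and the 4 numbered dirigent genes (Dir) in roots (top) and leaves (bottom) for the 4 treatments and Control. In roots ZnEx is the highest or second highest point for each gene, and in leaves ZnLim is the highest for 9 of the 11 genes, the exceptions being Sobic.005G136800, listed at 0, and Sobic.005G137100.

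The chalcone isomerase Sobic.008G030100, whose closest Arabidopsis gene is of the CHI-like type that assists chalcone synthase, was also higher in ZnEx than in ZnLim, and in ZnLim than in Control, at 21 d. It stood at 139.6, 139, 188, 284, 418 and 544 TPM in ZnEx roots and 153, 61.7, 89.0, 145, 165 and 232 TPM in Control roots, with ZnEx above every Control value from 7 d onward. The difference was 0.94 ± 0.86 (adjusted p = 0.664) with all root columns in the fit and 0.94 ± 0.26 (adjusted p = 0.0725) without the FeEX column at 7 d. In FeEX roots the gene stood at 188, 118, 165, 52183, 196 and 194 TPM. The value at 7 d was 361-fold above Control at that time (8.49 on the log2 scale), 95.9-fold above the highest of the other 30 root columns, and 5.22% of all TPM in its column. At the other 5 times FeEX lay between 118 and 196 TPM, and the FeEX difference was 1.76 ± 0.86 (adjusted p = 0.653) with that column and 0.34 ± 0.28 (adjusted p = 0.757) without it. The labels list 2 libraries for this column, while the decimals of its values are those of a mean of 3.

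PAL and the early steps varied without a called change in ZnEx roots. The PAL2-like Sobic.004G220300 stood at 4616, 3439, 5724, 5171, 4903 and 5513 TPM in ZnEx roots and 4365, 7834, 8642, 5596, 5804 and 5203 TPM in Control roots, lower in ZnEx at 2 d, 4 d, 7 d and 14 d. The PAL1-like Sobic.006G148900 had 12.4, 4.53, 16.0, 21.2, 37.9 and 54.1 TPM in ZnEx roots and 17.0, 2.38, 7.36, 5.94, 4.46 and 16.1 TPM in Control roots (1.25 ± 0.38, adjusted p = 0.108). For this gene the ZnEx value was above Control at 5 of 6 times. Among members with 1 sign at 5 or more times and a mean of at least 5 TPM in the higher group, the largest negative difference was that of the CCR Sobic.001G037800 (-0.72 ± 0.22, adjusted p = 0.108).

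Zinc deprivation gave no called member in roots by limma (0 of 84, 5 at an unadjusted p under 0.05), against 0.00977% of all genes called. An unadjusted p under 0.05 was found for 1298 of the 20481 genes. The member median was 0.18 and the all-gene median 0.02, and 62 of 84 members (73.8%) had a positive difference, against 52.4% of all genes. Dirigent genes led this, with 22 of 23 positive and a median of 0.37, but the early window alone had a median of 0.81 and the late window of 0.00, and 15 of these genes had low Control values at 2 d and 4 d. The all-gene medians were 0.02 early and -0.01 late. Whether the low Control columns account for the positive differences was not tested. The dirigent Sobic.002G119900 had the largest positive difference by the same choice of members: it stood at 19.0, 18.3, 28.5, 28.1, 79.9 and 115 TPM in ZnLim roots and 19.8, 3.26, 11.5, 14.4, 18.2 and 27.4 TPM in Control roots (1.40 ± 0.30, adjusted p = 0.164). ZnLim was above Control at 5 of 6 times, and its 14 d and 21 d values exceeded every Control value.

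A run of numbered PAL1-like genes was also high in ZnLim roots at 21 d, an observation made after their values were seen. Sobic.004G220500 had 16.3, 3.75, 3.60, 4.95, 7.35 and 174 TPM in ZnLim roots and 23.8, 0.188, 1.11, 8.85, 8.40 and 119.6 TPM in Control roots. Sobic.004G220600 and Sobic.004G220700 had 161 and 123.3 TPM in ZnLim at 21 d, against 95.8 and 75.8 TPM in Control. In FeEX at that time the 3 genes stood at 9.99, 8.10 and 10.8 TPM, and in ZnEx at 29.0, 29.0 and 41.7 TPM. Only ZnLim was above Control at 21 d for these 3 genes, and before 21 d the ZnLim values of Sobic.004G220500 did not exceed 16.3 TPM. CCoAOMT sums at 21 d were also highest in ZnLim roots, at 1401 TPM, against 902 TPM in Control.

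Single times showed how often members left Control beyond 2-fold at 5 TPM or more, a description without a test. At 2 d and 4 d, where the Control columns stand apart, 33.3% and 28.6% of the members tested were higher in FeEX roots by that measure, against 14.6% and 9.27% of all genes. In ZnEx roots the shares were 28.6% and 23.8%, against 17.8% and 10% of all genes, and in ZnLim roots 20.2% at both times, against 10.4% and 8.09%. In ZnEx roots 20.2% were higher at 7 d, 25% at 14 d and 27.4% at 21 d, against 3.28%, 3.94% and 6.46% of all genes. At 21 d a further 21.4% of the members were lower in ZnEx, against 10.5% of all genes. In ZnLim roots 22.6% were higher at 14 d and 20.2% at 21 d, against 5.97% and 4.52% of all genes, and in FeEX roots 22.6% were higher at 14 d, against 4.08%. Other times went the other way: in ZnLim roots at 7 d 0% were higher and 10.7% lower, against 1.5% and 2.7% of all genes, and in FeEX roots at 21 d 1.19% were higher and 10.7% lower, against 1.08% and 4.43%. In FeLim roots the widest shares were 23.8% higher and 16.7% lower at 4 d, against 9.6% and 5.72% of all genes. The 14 d Control column is shared by these 3 comparisons.

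Iron excess and iron deprivation gave no called member in roots. In FeEX, limma called 0 of 84 members with 0% of all genes called, and the member median was 0.14 against an all-gene median of -0.05. An unadjusted p under 0.05 was found for 4 members and for 1537 of the 20481 genes. In the early window limma called 0 members, against 0.0244% of all genes, all of them higher. An unadjusted early p under 0.05 was found for 22 of 84 members and 5060 of 20481 genes, so the 2 shares were close. Dirigent genes had an early median of 1.01, with 20 of 23 positive, and a late median of -0.55, with 6 of 23 positive. Of all genes, 53.4% were positive early (median 0.05) and 21.5% late (median -0.17), so the late dirigent share was near that of all genes. The late window holds the FeEX column at 7 d, in which 8 genes took 33.6% of the TPM. What that column adds to the late values was not tested. The late minus early test called 1 member lower, against 0.395% of all genes. This gene, the dirigent Sobic.002G005200, stood at 38.4, 31.2, 41.6, 24.2, 24.5 and 21.9 TPM in FeEX roots and 34.7, 4.51, 12.1, 44.1, 36.4 and 30.1 TPM in Control roots (-2.08, adjusted p = 0.0482). The FeEX values ranged from 21.9 to 41.6 TPM, and the Control values at 2 d and 4 d were the 2 lowest. Without the FeEX column at 7 d the call was lost. The same gene was the only early call in ZnEx roots (1.62 ± 0.31, adjusted p = 0.0444, with 0.239% of all genes higher), and that call was also lost without the FeEX column at 7 d.

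In FeLim roots limma called 0 of 84 members, with 0% of all genes called. An unadjusted p under 0.05 was found for 0 members and for 100 of the 20481 genes. The member median was -0.03 and the all-gene median -0.01. By the same choice, the largest positive difference was that of the dirigent Sobic.005G061700 (0.61) and the largest negative one that of the dirigent Sobic.005G206000 (-0.48). The PAL2-like Sobic.004G220300 had 3945, 6375, 9058, 6325, 7435 and 5409 TPM in FeLim roots, 2242, 6920.1, 8767, 3119, 7005 and 5901 TPM in FeEX roots and 3897, 7917, 7882, 5906, 9823 and 4103 TPM in ZnLim roots. These values crossed those of Control, and the lowest of them were the FeEX values at 1 h and 7 d. In the FeEX column at 7 d, 8 genes held 33.6% of the TPM, which leaves a smaller share for all other genes. The part of this in the PAL value was not tested.

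In iron-deprived leaves the share of members called was close to that of all genes, and the called members were 3 reductases and 2 oxygenases. Over the 5 times limma called 3 of 58 members higher and 2 lower, while of all genes 8.67% were called, 6.79% higher and 1.87% lower. An unadjusted p under 0.05 was found for 20 of 58 members and 5757 of 17088 genes, again close shares. PAL did not pass the test. The member median was 0.23 and the all-gene median 0.24, and rescaling the columns, which moved the all-gene median to 0.01, gave 3 members higher and 3 lower, with 29 of 58 differences positive. Leaf markers were lower in the same plants from 7 d: they summed to 146363, 93521 and 68270 TPM in FeLim leaves at 7, 14 and 21 d, against 251018, 184889 and 143703 TPM in Control leaves. The part of that difference in the members' values was not tested. Each of the 5 called members kept its call in 6 of 11 alternative fits. Leaving out 7, 14 or 21 d gave 0 called members, leaving out 2 d gave 7 higher and 3 lower, and leaving out 4 d gave 6 higher and 3 lower.

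Of the called members, the widest rise was in the IFR relative Sobic.003G241300, with 3.98, 2.33, 27.3, 15.2 and 10.4 TPM in FeLim leaves at 2, 4, 7, 14 and 21 d and 1.87, 1.75, 3.46, 2.23 and 2.05 TPM in Control leaves (1.59 ± 0.42, adjusted p = 0.0323). It was above Control at all 5 times and furthest at 7 d. Sobic.008G106800, whose closest Arabidopsis gene is the pinoresinol reductase PRR1 of lignan synthesis, had 5.06, 2.03, 8.47, 17.5 and 39.5 TPM in FeLim leaves and 4.52, 2.05, 1.94, 3.38 and 3.41 TPM in Control leaves (1.42 ± 0.38, adjusted p = 0.0335). FeLim and Control were close up to 4 d and apart from 7 d, and the late minus early difference passed its own test (2.26 ± 0.56, adjusted p = 0.0389, with 2.98% of all genes higher), a call kept in 1 of 4 alternative fits. The SRG1-like oxygenase Sobic.001G366100 had 2.94, 1.80, 16.4, 23.0 and 13.7 TPM in FeLim leaves and 2.25, 0.995, 3.08, 3.31 and 5.13 TPM in Control leaves (1.32 ± 0.33, adjusted p = 0.0294). Every FeLim value from 7 d onward was above every Control value.

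Of the 2 called lower, the DFR relative Sobic.003G342100 had 45.4, 51.4, 12.3, 21.4 and 43.7 TPM in FeLim leaves and 59.4, 64.2, 42.8, 70.8 and 91.1 TPM in Control leaves (-1.03 ± 0.29, adjusted p = 0.0394). It was below Control at each time, most at 7 d. The flavanone hydroxylase relative Sobic.009G028200 had 11.1, 14.3, 3.09, 8.66 and 5.50 TPM in FeLim leaves and 12.6, 12.8, 4.79, 22.6 and 21.8 TPM in Control leaves (-0.72 ± 0.22, adjusted p = 0.0465). It was below Control at 4 of 5 times, and over the alternative fits its adjusted p ran between 0.00721 and 0.238. The second member with a late minus early call was the DFR relative Sobic.001G285400, with 6.05, 8.62, 12.6, 15.6 and 17.8 TPM in FeLim leaves and 7.98, 9.48, 7.74, 7.93 and 6.91 TPM in Control leaves (1.16 ± 0.31, adjusted p = 0.046), a call kept in 0 of 4 alternative fits, over which the adjusted p ran between 0.052 and 0.39. The same gene was the late DFR call of ZnEx roots.

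PAL levels in FeLim leaves varied between times. The leading leaf gene Sobic.004G220700 had 441, 105, 331, 684 and 456 TPM in FeLim leaves and 137, 222, 122, 148 and 266 TPM in Control leaves (1.00 ± 0.54, adjusted p = 0.19). FeLim was above Control at each time except 4 d. At 2 d the PAL sum was above Control in the other treatments too. It stood at 772 TPM in FeLim, 687 TPM in FeEX, 501 TPM in ZnLim and 349 TPM in ZnEx leaves, against 278 TPM in Control. The PAL2-like Sobic.004G220300 had 108, 87.7, 168, 90.02 and 46.4 TPM in FeLim leaves and 64.2, 46.7, 160.3, 60.7 and 29.0 TPM in Control leaves (0.59 ± 0.22, adjusted p = 0.0815), above Control at 5 of 5 times. The CCR1-like Sobic.007G141200, the reductase that commits CoA esters to lignin, had 198, 135, 387, 149.9 and 69.5 TPM in FeLim leaves and 127, 66.5, 190.0, 83.7 and 43.8 TPM in Control leaves (0.83 ± 0.27, adjusted p = 0.0565), also above Control at 5 of 5 times. All 6 PAL genes tested in leaf had positive differences and none passed the test. Of all genes, 74.1% had a positive difference.

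**Figure D4:**
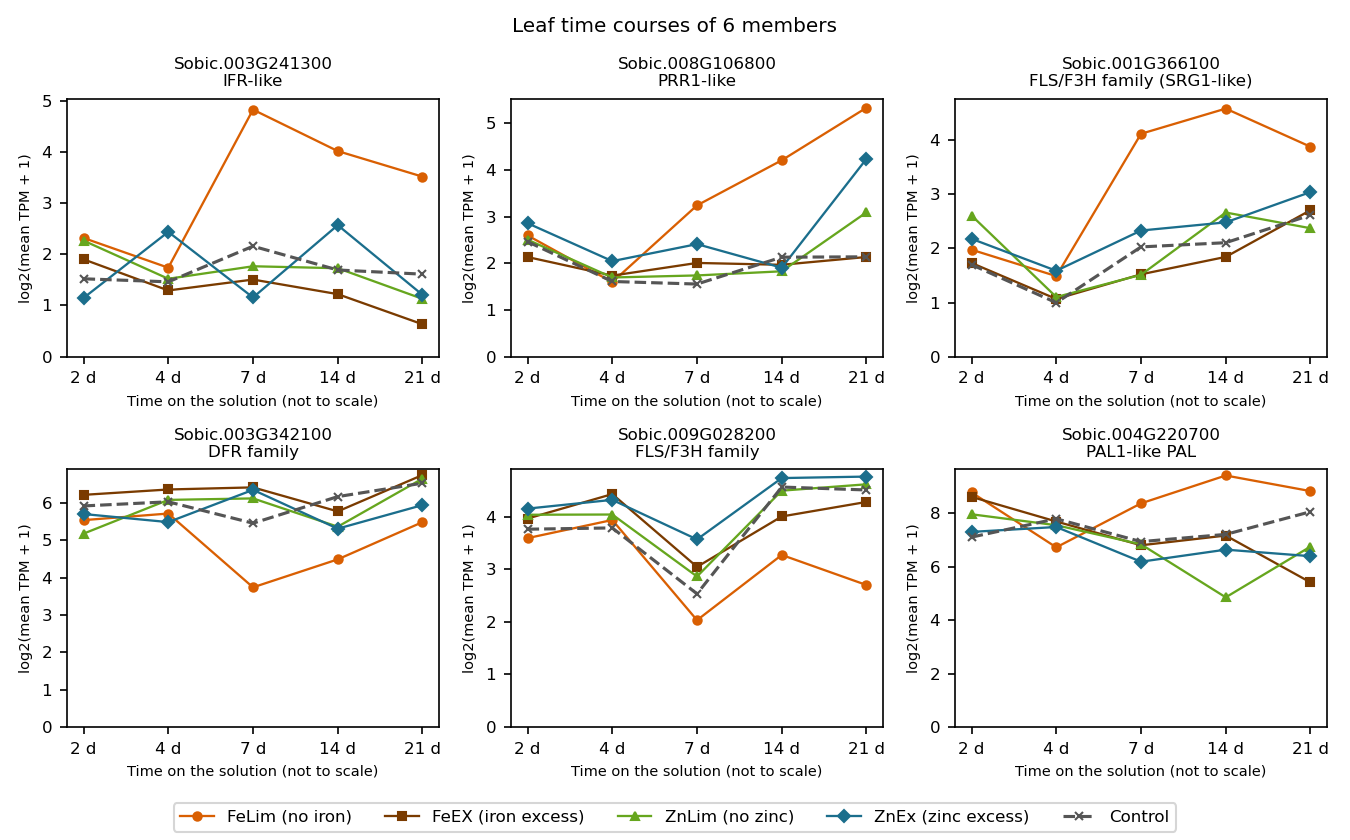
Leaf levels, log2(mean TPM + 1), of the 5 members called in FeLim and of the leading leaf PAL gene against time for FeLim, FeEX, ZnLim, ZnEx and Control (dashed). FeLim lies above the other lines from 7 d for the 3 higher genes and for PAL from 7 d, and below them from 7 d for the 2 lower genes.

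Early and late windows differed in FeLim leaves. At 2 d and 4 d limma called 0 members (2 at an unadjusted p under 0.05), with 0% of all genes called. An unadjusted p under 0.05 was found for 325 of 17088 genes in that window. At 7, 14 and 21 d, 15 of 58 members were higher and 7 lower, against 32.5% of all genes higher and 5.31% lower, so fewer members than that background were higher and more were lower. These late genes were singled out after their values were seen. 5 of 7 DFR relatives were higher and 1 was lower, and 2 of 8 flavonol synthase relatives were higher and 3 were lower.

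The members higher late than Control included a glucosyltransferase, a chalcone synthase, a dirigent and a chalcone isomerase. The flavonol glucosyltransferase Sobic.003G047500 had 0.118, 0.194, 7.93, 11.5 and 2.94 TPM in FeLim leaves and 0.0790, 0.197, 0.330, 0.211 and 0.472 TPM in Control leaves (late difference 2.51 ± 0.78). The chalcone synthase Sobic.005G102100 had 1.25, 0.454, 12.5, 7.15 and 3.55 TPM in FeLim leaves and 1.37, 0.278, 0.969, 1.19 and 0.0273 TPM in Control leaves (2.27 ± 0.39). Both were within 2 TPM at 2 d and 4 d and above every Control value at each late time. The chalcone synthase averaged 4.98 TPM in FeLim leaves, against 0.766 TPM in Control, 0.507 TPM in FeEX, 1.00 TPM in ZnLim and 0.560 TPM in ZnEx. It thus passed the level filter only through the FeLim columns, and its call among the higher members rests on that. The dirigent Sobic.005G200600, a leaf-type gene, had 127, 12.8, 376, 126 and 47.3 TPM in FeLim leaves and 80.2, 3.92, 41.3, 37.6 and 12.5 TPM in Control leaves (2.24 ± 0.78), above Control at 5 of 5 times. The second CHI gene, Sobic.004G109000, had 13.1, 1.73, 10.8, 19.4 and 23.7 TPM in FeLim leaves and 7.01, 2.02, 6.38, 3.17 and 10.3 TPM in Control leaves (1.36 ± 0.38).

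Late differences below Control were seen among oxygenases and in a leaf dirigent, a DFR relative and a chalcone synthase. The DMR6-like Sobic.001G314300, related to an enzyme that hydroxylates salicylic acid in Arabidopsis, had 17.0, 36.2, 5.48, 4.60 and 8.09 TPM in FeLim leaves and 19.4, 28.3, 12.2, 75.03 and 43.9 TPM in Control leaves (-2.36 ± 0.67). FeLim was below Control at each late time. The flavonol synthase FLS1-like Sobic.004G310100 had 6.10, 0.481, 0.0153, 0 and 0 TPM in FeLim leaves and 4.88, 0.873, 2.33, 3.13 and 2.27 TPM in Control leaves (-1.82 ± 0.46), and was listed at 0 in FeLim at 14 d and 21 d. The leaf dirigent Sobic.005G192600 had 91.2, 94.7, 67.2, 34.4 and 51.3 TPM in FeLim leaves and 89.4, 87.7, 58.7, 294 and 154 TPM in Control leaves (-1.48 ± 0.42), and the Tic62-like Sobic.002G000500 also fell (-1.08 ± 0.31). The chalcone synthase Sobic.005G135000, low throughout, had 0.472, 0.596, 0.555, 0.731 and 0.758 TPM in FeLim leaves and 0.595, 0.553, 1.14, 2.76 and 2.17 TPM in Control leaves (-0.81 ± 0.20, adjusted p = 0.00741). Its FeLim values did not fall with time, while its Control values rose. At 14 d, 15.5% (FeLim), 13.8% (FeEX), 19% (ZnLim) and 10.3% (ZnEx) of the members tested were below the shared Control leaf column by 2-fold at 5 TPM. The shares of all genes were 6.68%, 5.41%, 5.12% and 3.62% in that order. The part of that Control column in the late differences was not tested.

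**Figure D5:**
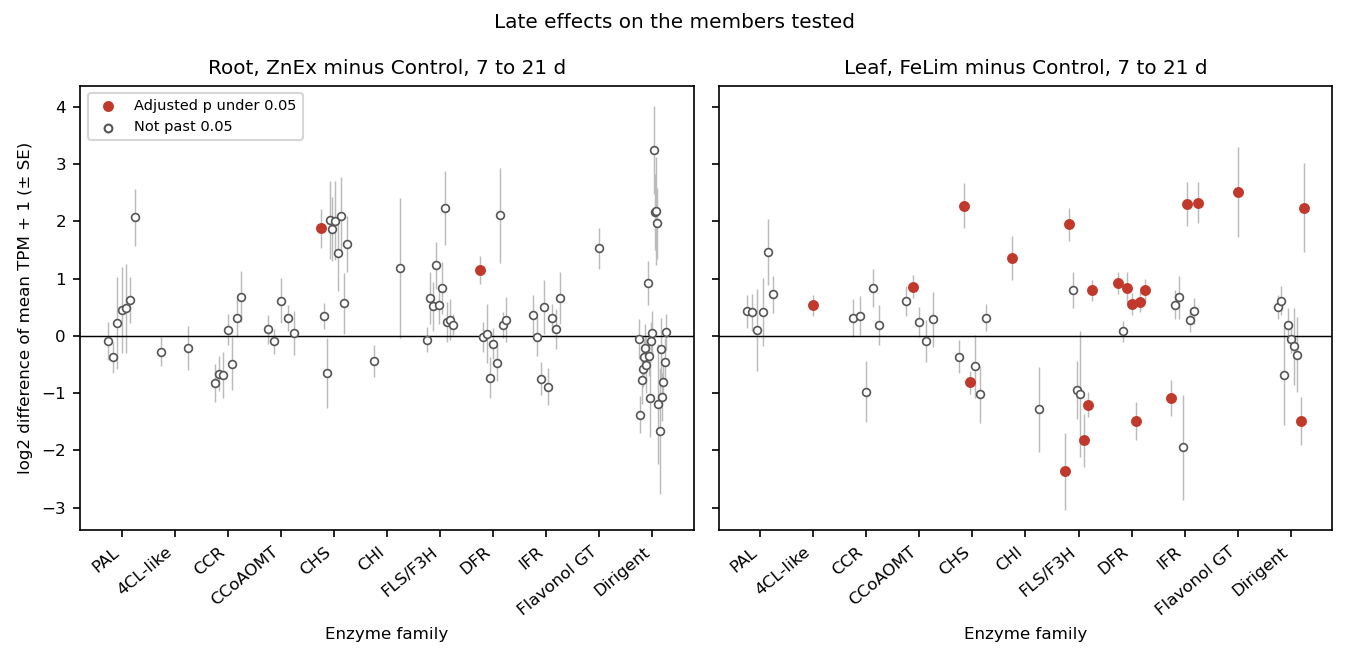
Late log2 differences (7 to 21 d) ± SE of the members tested, by family, for ZnEx minus Control in roots (left) and FeLim minus Control in leaves (right); filled points have an adjusted p under 0.05. In ZnEx roots 7 of the 10 CHS points lie between 1.44 and 2.08, 1 of them filled, and in FeLim leaves filled points lie on both sides of 0.

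The other 3 treatments gave no called member in leaves. Limma called 0 of 58 members for ZnLim (0% of all genes), 0 of 58 for ZnEx (0.0293% of all genes) and 0 of 58 for FeEX (0% of all genes). An unadjusted p under 0.05 was found for 2 members in ZnLim, 6 in ZnEx and 1 in FeEX. Among all 17088 genes it was found for 192 in ZnLim, 2060 in ZnEx and 521 in FeEX. The member medians were 0.07, 0.04 and -0.05, beside all-gene medians of 0.06, 0.21 and 0.07. With 1 sign at 4 or more times and the same level limit, the largest differences in ZnEx leaves were those of the dirigent Sobic.005G200600 (0.93 ± 0.67) and, negative, of the PAL1-like Sobic.004G220700 (-0.62). Rescaling the columns moved the ZnEx all-gene median to -0.01 and the ZnEx member median to -0.18.

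At 21 d both zinc treatments nevertheless held the highest leaf values of several members. By the measure of 2-fold at 5 TPM, 27.6% of the members tested were higher in ZnLim leaves at 21 d and 20.7% in ZnEx leaves, against 11% and 12.5% of all genes. In each of these 21 d columns 8.62% of the members were lower, against 1.83% (ZnLim) and 2.37% (ZnEx) of all genes. At 14 d in ZnLim leaves 5.17% were higher and 19% lower, against 2.01% and 5.12% of all genes. CHI Sobic.008G030100 had 217 TPM in ZnLim leaves and 93.7 TPM in ZnEx leaves at 21 d, against 18.7 TPM in Control. The DMR6-like Sobic.001G314300, which was below Control late in FeLim leaves, had 418 TPM in ZnLim leaves and 259.9 TPM in ZnEx leaves, against 43.9 TPM in Control.

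The chalcone synthases and dirigent proteins that were high in zinc-treated roots at 21 d were in part also high in ZnLim leaves at that time, in values singled out after they were seen. Of the 6 numbered chalcone synthases, which lay below the level filter in leaf, Sobic.005G136800 was listed at 0 in every leaf column and Sobic.005G137100 had 2.62 TPM in ZnLim leaves, 2.69 TPM in ZnEx leaves and 0.0687 TPM in Control leaves at 21 d. Sobic.005G136300, Sobic.005G137200 and Sobic.005G137300 had 16.0, 17.4 and 8.71 TPM in ZnLim leaves at 21 d, against 0.159, 0.132 and 0.0697 TPM in Control. The dirigent Sobic.005G101800 had 22.6 TPM in ZnLim, 4.60 TPM in ZnEx and 0.438 TPM in Control leaves, and over all 5 times it did not pass the test in ZnLim (0.78 ± 0.51, adjusted p = 1). At 14 d the highest value of Sobic.005G136300, Sobic.005G137200, Sobic.005G137300 and Sobic.005G101800 in any leaf column was 0.338 TPM. Leaf markers summed to 73724 TPM in ZnLim and 69076 TPM in ZnEx leaves at 21 d, against 143703 TPM in Control, and root markers to 122 TPM in ZnLim and 143 TPM in ZnEx, against 90.3 TPM in Control. The part of these marker differences in the members' values was not tested.

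The dirigent Sobic.002G119900 stood out in leaves of more than 1 treatment. It had 1.96, 1.00, 0.939, 53.3 and 56.0 TPM in ZnLim leaves, 1.06, 6.78, 0.638, 16.7 and 39.9 TPM in FeEX leaves and 0.974, 1.25, 0.563, 0.872 and 1.01 TPM in Control leaves. The ZnLim values at 14 d and 21 d were 61.1-fold and 55.2-fold above Control. FeEX was above Control at 5 of 5 times (1.90 ± 0.74) and ZnLim differed by 2.08 ± 0.74 (adjusted p = 1), so neither passed. The chalcone synthase Sobic.005G136200 had 9.04, 6.06, 2.30, 5.37 and 15.8 TPM in ZnLim leaves and 1.91, 2.16, 2.11, 3.73 and 1.55 TPM in Control leaves, above Control at 5 of 5 times. The flavonol glucosyltransferase Sobic.003G047500 had 28.8 TPM in ZnLim leaves at 21 d, against 0.472 TPM in Control.

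The difference between the tissues in their response was tested itself for the 49 members expressed in both. Limma called 0 of 49 for each treatment, with 7 (FeLim), 0 (FeEX), 1 (ZnLim) and 7 (ZnEx) at an unadjusted p under 0.05. Of all genes, 0.0322% (FeLim), 0% (FeEX), 0% (ZnLim) and 0.232% (ZnEx) were called. An unadjusted p under 0.05 was found for 2492 (FeLim), 1124 (FeEX), 360 (ZnLim) and 2203 (ZnEx) of the 15528 genes. A call in 1 tissue only was therefore not shown to differ from the other tissue for any member.

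Other genes of the pathway were counted on lists defined by their annotation. In ZnEx roots 5 of 31 anthocyanidin-step genes were higher and 0 lower, beside 1.21% of all genes higher and 0.176% lower. They were UGT88A1-like glucosyltransferases and related genes, led by Sobic.003G287500 (2.22 ± 0.32, adjusted p = 0.000685) and Sobic.003G293700 (2.05 ± 0.25, adjusted p = 8.76e-05). Their rice definition lines name putative anthocyanidin glucosyltransferases, a family wording and not a proven activity. Of the other lists 0 genes were called there over all times among 37 shikimate and phenylalanine supply genes, 19 cytochrome P450 steps, 17 laccases, 7 OMT1-like O-methyltransferases or 18 MYB regulators. In the early window the MYB4-like Sobic.005G062000 was higher (2.04 ± 0.42, adjusted p = 0.0444), beside 49 of 20481 genes.

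In FeLim leaves, where 6.79% of all genes were higher and 1.87% lower, 5 of 25 anthocyanidin-step genes were higher and 0 lower, 3 of them BAN-like reductases and the highest Sobic.006G227300 (1.81 ± 0.46). Of 42 supply genes 3 were higher, a share near that of all genes, and 2 were lower. The higher ones included the HCT-like Sobic.003G082900 (0.83 ± 0.21), a relative of the acyltransferase that joins coumaroyl-CoA to shikimate. The 2 lower ones, Sobic.001G202600 (-3.73 ± 1.12) and Sobic.006G234100 (-2.10 ± 0.59), are HEMA1-like glutamyl-tRNA reductases of tetrapyrrole synthesis and stand on the list through the wording of their annotation. Of 9 MYB regulators the MYB61-like Sobic.009G036500 was higher (1.00 ± 0.31), and of 13 cytochrome P450 steps the CYP75B1-like Sobic.001G363700, a flavonoid hydroxylase relative, was lower (-0.64 ± 0.17). None of 3 OMT1-like genes and 1 laccase was called, and over all times no list held a called gene in the 6 other treatment comparisons. The late minus early test in FeEX roots called the LAC2-like laccase Sobic.003G353200 lower (-2.64 ± 0.57, adjusted p = 0.0482), beside 81 of 20481 genes. Late FeLim leaves held further called genes of the anthocyanidin, supply, MYB and P450 lists, where 5549 of 17088 genes were higher and 908 lower.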

How the data were processed

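RNA-seq of roots and leaf discs was deposited as 1 table of the authors' mean TPM per gene, with 57 columns of tissue, treatment and time; 8 columns sum above the usual TPM total because genes are listed more than once, and the deposited values of these were handled as a signal with the same scale. DRAGEN is named in the submitters' processing notes. For build and annotation the labels name none (not given in the sources used here). With TPM alone, depth is unknown and no interval from depth is given. Of 34924 lines, 795 repeats with identical values were dropped. In 3 columns the number of libraries in the labels differs from that which the decimals give.

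Genes averaging at least 1 TPM in a tissue after 0 h were fitted on log2(TPM + 1) with limma 3.58.1 in R 4.3.3 (trend, time plus treatment, Benjamini-Hochberg adjustment over all genes tested: 20481 in root, 17088 in leaf), with all treatments of a tissue in 1 fit. Fold changes are on that log2 scale, which understates those of low genes. Times stand in for replicates, so p-values measure how steady a difference is over time. A second fit had 1 effect up to 4 d (early) and another at 7, 14 and 21 d (late). Root and leaf were compared over 15528 genes for effects and over 22041 for levels. The code was tested on simulated data.

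Members and gene lists were chosen with earlier results of these data known. Named were members that passed the threshold (at most 15 per direction), the highest of each role in each tissue, the 3 largest differences per direction with 1 sign at all times but at most 1 and at least 5 TPM, and the chalcone isomerase of the FeEX column at 7 d. On the pathway lists, P450 prefixes were narrowed to single families and 2 MYB symbols that match unrelated genes were dropped after the table was seen. Names are those of the deposited annotation, and near-identical neighbours may share reads.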

Additional observations from a re-analysis of the deposited data

Results flagged for a closer look

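The chalcone isomerase Sobic.008G030100 in FeEX roots at 7 d differed from Control by 8.49 on the log2 scale, far from its differences at the other 5 times. Of 49 gene and treatment pairs checked for a time that stands apart in this way, 1 was so. This gene was known to be extreme in that column before the check, so the check is no separate evidence. That column also held 7 other genes at 5000 TPM or more, and the 8 together took 33.6% of its TPM.

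The dirigent Sobic.002G005200 differed between late and early times in FeEX roots (late minus early -2.08), with low Control values at 2 d and 4 d. The PRR1-like Sobic.008G106800 differed between late and early times in FeLim leaves (2.26), as did the DFR relative Sobic.001G285400 (1.16). Each difference was tested itself by limma.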

How the results depend on the processing

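The FeLim leaf and ZnEx root counts changed with several settings. ZnEx root members higher were 0 with a pseudocount of 0.1 and with treatment and Control columns alone, and members lower were 1 over late times alone. FeLim leaf members were 0 higher and 0 lower with no level filter, 0 and 0 with treatment and Control columns alone, and 12 and 7 over late times alone, a setting chosen after seeing the data. The FeEX root late minus early count of members lower was 0 with a pseudocount of 0.1, no filter, rescaled columns, a boundary between 7 d and 14 d, or without the FeEX column at 7 d. The FeLim leaf late minus early count of members higher was 1 with a pseudocount of 0.1 and 0 with no filter, rescaled columns or the moved boundary, and members lower were 1 with rescaled columns and 1 with the moved boundary. The moved boundary gave 1 member higher in ZnLim leaves, and rescaling gave 28 members lower in root than leaf. The causes were not tested.

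Leaving out each time in turn gave 0 to 7 members higher and 0 to 3 lower in FeLim leaves, 0 to 4 higher and 0 to 1 lower in ZnEx roots, 0 to 1 higher in ZnLim roots, 0 to 1 lower for the root minus leaf effect of FeLim, 0 to 1 higher for that of ZnEx, and 55 to 58 higher and 15 to 18 lower for the root minus leaf level. Leaving the FeEX column at 7 d out of the fits of the other root treatments, also chosen after seeing the data, changed no count over all times. Without that column the late FeEX difference of Sobic.008G030100 was -0.16, against 2.82 with it, and its late minus early difference -0.86, against 2.12; neither passed the test. Of the counts, 296 stayed within 1.5 times and 40 did not, and single genes kept their call in 35 cases and lost it in 46. No paired analysis was possible because the columns are means and carry no replicate numbers. The means give neither plant spread nor depth, so how far small differences exceed either cannot be told.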

Other observations

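Among leaf columns, ZnLim at 14 d and 21 d held most of the highest values of root-type members, but at 14 d their share was near that of all such genes. Of 27 members with a root mean of at least 5 TPM and a leaf median under 0.5 TPM, 11 had their highest leaf value in ZnLim at 14 d and 9 in ZnLim at 21 d, against 790 (37.1%) and 334 (15.7%) of 2128 such genes overall. At 14 d the dirigent Sobic.006G011900 reached 4.24 TPM, with 0.660 TPM as its highest value in any other leaf column, and the dirigent Sobic.004G147400 reached 3.02 TPM, with 0.073 TPM elsewhere. The dirigents Sobic.006G256900 and Sobic.005G206000 had 2.78 and 2.20 TPM there, against highest values elsewhere of 0.734 and 0.427 TPM. The root markers summed to 31.0 TPM in that column, within the leaf range of 19.3 to 155 TPM. Their range in roots, 80.3 to 251 TPM, overlaps that of leaves, so this sum cannot show a small part of root RNA. The part of root RNA in these values was not tested.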
